A study of Mus musculus with 13 samples.

Results

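Sarcolipin, the sarco/endoplasmic reticulum calcium pumps (SERCA) and their partners in calcium release and storage were followed as 10 genes of the 21868 in the table of normalized read counts from mouse gastrocnemius. The genes were taken by symbol: Sln and Pln (regulators of the pump), Atp2a1 and Atp2a2 (the pumps), Casq1 and Casq2 (calcium storage), Ryr1 (the release channel), Cacna1s (the voltage sensor), Jph1 (the junction) and Pvalb (a cytosolic calcium buffer). The list was chosen by gene family with the levels of these genes in the same 3 groups of mice already known, so the normalized counts below took part in the choice and their group differences are described by values and standard errors, without tests. All 10 genes passed the filter of a mean of at least 10 normalized counts that left 12303 genes for testing.

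The muscle came from 13 male C57BL/6 mice (given by the study as C57BL/6N for the RNA-seq), with no genetic modification named in the labels. Mice were 7 weeks old on arrival, ate a diet with 60 kcal% fat for 15 to 17 weeks, and all were then switched to standard chow, the vehicle-treated mice included. Treatment lasted 3 weeks and consisted of phosphate-buffered saline with placebo (vehicle, 5 mice), semaglutide at 30 nM/kg per day by intraperitoneal injection with placebo (5 mice), or the same semaglutide with drinking water that held ketone ester at 0.114 g/mL (3 mice). No mouse among the 13 received ketone ester without semaglutide. Semaglutide is an agonist of the glucagon-like peptide 1 receptor, and the ketone ester is a dietary source of ketone bodies.

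A muscle fibre contracts when calcium leaves the sarcoplasmic reticulum (SR) through the ryanodine receptor, which is opened by the voltage sensor of the T-tubule, and relaxes when SERCA pumps the calcium back at the cost of ATP. Within the SR lumen the calcium is held by calsequestrin, and in fast fibres of rodents parvalbumin binds calcium in the cytosol and speeds relaxation. Sarcolipin and phospholamban are small membrane proteins that inhibit SERCA, and sarcolipin can let the pump hydrolyse ATP without moving calcium, which produces heat.

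Between 15319471 and 23498162 reads per mouse were counted on genes. On the first principal component of all tested genes, which held 38.1% of the variance, semaglutide mouse 13 scored -9.12, apart from the other semaglutide-treated mice (31.8 to 52.5) and nearer the vehicle-treated mice (-24.5 to -12.8). Semaglutide mouse 16 lay apart on the second component, which held 13.3%, at -45.3 against -20.5 to 25.1 in the other mice. Its summed adipocyte markers were at 14503 normalized counts against 1659 to 3166 in the other semaglutide-treated mice, and its macrophage markers at 1069 against 293 to 506. Mouse 16 was also the lowest of its group for Pln, Atp2a1, Casq1, Ryr1, Cacna1s, Pvalb and Jph1. Values without mouse 13 or 16, or the value of mouse 13 itself, are given for several genes where these mice bear on a result. All 7 skeletal muscle markers were expressed, with sums of 1522778 to 3437352 normalized counts per mouse, and they did not move as one. Under semaglutide 3 fell (Acta1, Mb and Myh4) and 1 rose (Des), and the same 3 were higher and Des lower with ketone ester than without, while Ckm, Ttn and Neb did not pass the test. Of 6 cardiac muscle markers, Nppb was at 0 in every mouse, Nppa, Myl7 and Tnni3 had group means of at most 2.01 normalized counts, and Myh6 and Tnnt2 had group means between 32.6 and 71.2. Because the RNA came from whole muscle, fewer cells of a type and less RNA per cell cannot be told apart.

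Semaglutide-treated mice carried more Sln transcript than every vehicle-treated mouse, and less Casq1, Pvalb and Pln on average, while the other genes of the list differed by at most 0.42 on the log2 scale between these groups. Mice given ketone ester with semaglutide had Casq1 and Pvalb at or above the vehicle range, and Sln between 49.3 and 400 normalized counts. By limma, 4 of the 10 genes were past an adjusted p of 0.05 between semaglutide and vehicle, beside 25.1% of all genes tested. The comparison of semaglutide + ketone ester with semaglutide gave 4 of 10 genes beside 18.4%. For semaglutide + ketone ester against vehicle the number was 0 of 10 by limma, beside 0.236% of all genes. It was 0 by edgeR and 1 by DESeq2, which called 45 and 172 of all genes. At an unadjusted p under 0.05 there was 1 of the 10, for which no share of all genes is given. The groups did not overlap for 1 gene (Sln) between semaglutide and vehicle, beside 14.7% of all genes (7.22% higher and 7.45% lower in every mouse). They did not overlap for 3 genes (Pln, Cacna1s and Pvalb) between semaglutide + ketone ester and semaglutide, beside 20.1% (9.96% higher and 10.2% lower). For semaglutide + ketone ester and vehicle the 3 genes without overlap were Sln, Atp2a1 and Pvalb, beside 11.3% (5.45% higher and 5.88% lower), and limma called 0.0732% of all genes higher and 0.163% lower. Since these comparisons were known when the list was made, nothing is read from these counts. The first 2 comparisons share the semaglutide-treated mice.

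**Figure D1:**
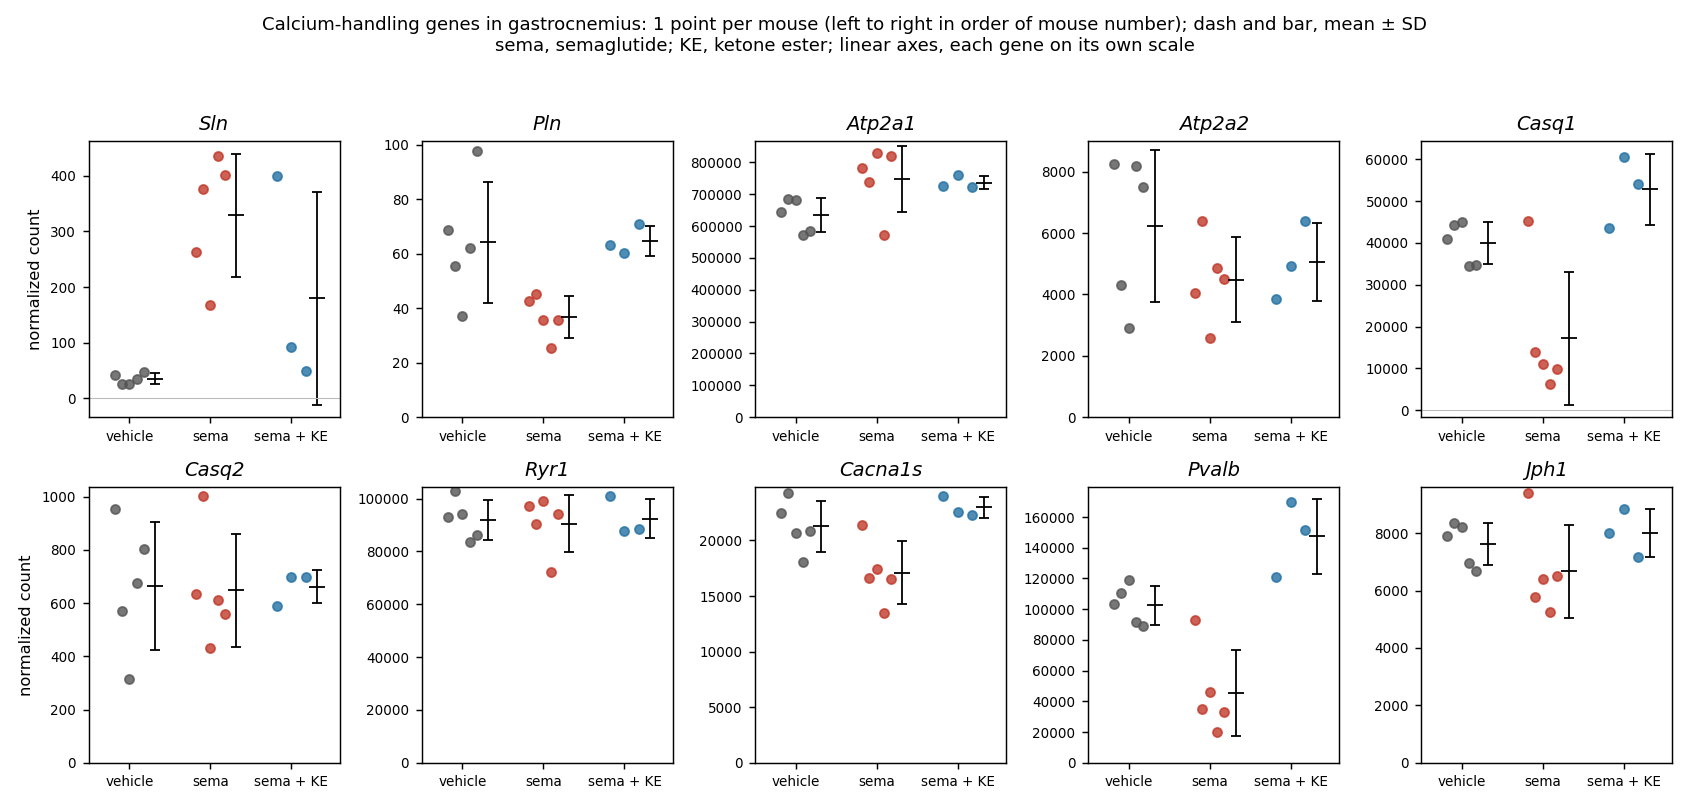
Normalized count (y axis, linear, 1 scale per gene) of the 10 genes in the vehicle, semaglutide and semaglutide + ketone ester groups (x axis); each point is a mouse, and the dash with its bar is the mean ± SD. Sln lies between 168 and 435 in the semaglutide-treated mice and between 25.3 and 47.7 in the vehicle-treated mice, and in the Casq1 and Pvalb panels a single semaglutide-treated mouse, number 13, lies far above the other 4.

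Sarcolipin (Sln, ENSMUSG00000042045.6) lies at chr9:53850164-53854560 on the plus strand of GRCm38, the build called mm10 in the submitters' notes. In vehicle-treated mice 1 to 5 its normalized counts were 42.3, 25.3, 26.0, 34.4 and 47.7, from 21 to 41 reads. Semaglutide-treated mice 13 to 17 had 263, 376, 168, 435 and 402, from 151 to 539 reads. Every semaglutide-treated mouse was thus above every vehicle-treated mouse, as in 7.22% of all genes tested, and this held for mouse 13 as well. The means were 35.1 ± 9.90 (SD, n = 5) and 329 ± 111 (SD, n = 5), a 9.36-fold ratio, and the fitted log2 difference was 3.15 (SE 0.47). Across the alternatives of scaling, test and left-out mice, that difference stayed between 2.86 and 3.38.

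Sln was uneven among mice given ketone ester with semaglutide. Mouse 19 had 400 normalized counts, within the semaglutide range, mouse 21 had 91.8 and mouse 22 had 49.3. Mice 21 and 22 lay below every semaglutide-treated mouse, and all 3 mice lay above the vehicle range, mouse 22 narrowly so (vehicle mouse 5 had 47.7). The mean of 180 ± 191 (SD, n = 3) gave a log2 difference of -1.34 (SE 0.54) from semaglutide and of 1.81 (SE 0.54) from vehicle. Without mouse 19 these became -2.19 and 0.96, and over all alternatives they ranged from -2.19 to -0.69 and from 0.96 to 2.46.

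Phospholamban (Pln, chr10:53337667-53345987, plus strand), the better-known SERCA inhibitor of heart and slow muscle, was scarce in this muscle and lay lower, not higher, under semaglutide. Its normalized counts were 68.7, 55.4, 37.1, 62.1 and 97.8 in vehicle-treated mice, 42.6, 45.1, 35.5, 25.2 and 35.8 in semaglutide-treated mice, and 63.2, 60.4 and 70.9 in the ketone ester group, from 26 to 84 reads. Of the semaglutide values 3 were below the lowest vehicle value, so that these groups overlapped, whereas semaglutide and semaglutide + ketone ester did not overlap. The log2 difference was -0.74 (SE 0.22) between semaglutide and vehicle and 0.82 (SE 0.26) between semaglutide + ketone ester and semaglutide. Pln is also expressed in smooth muscle, and of 5 smooth muscle markers 3 fell under semaglutide (Myh11, Acta2 and Smtn). The summed normalized count of the 5 markers ranged from 3026 to 3998 in vehicle, from 1676 to 3133 in semaglutide and from 2860 to 3436 in semaglutide + ketone ester, and their part in the Pln values was not tested. Reads of Pln and of Cep85l, which overlaps it on the opposite strand, can be told apart only if strand was used in counting, which is not given in the sources used here.

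Per kilobase of exon the 2 regulators stood at like levels in vehicle-treated mice, and their ranges overlapped. Sln per kilobase was 1.18 ± 0.206 (SD, n = 5) times Pln in vehicle, and between 9.88 and 36.1 times in the semaglutide-treated mice. In the ketone ester group the ratio was 13.2 in mouse 19, 3.18 in mouse 21 and 1.45 in mouse 22, the last within the vehicle range of 0.956 to 1.47. Both remained far below the pump: among 12276 genes ranked by vehicle level per kilobase, Sln was at rank 8894 and Pln at 9190, while Atp2a1 was at 11.

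Of the other regulators of SERCA, 3 of 6 listed genes were tested. S100a1, a calcium sensor that raises SERCA and ryanodine receptor activity, fell from 1257 ± 86.8 (SD, n = 5) to 779 ± 53.6 (SD, n = 5) under semaglutide, with every semaglutide-treated mouse below every vehicle-treated mouse, as in 7.45% of all genes (log2 difference -0.69, SE 0.08, limma adjusted p = 0.00023). With ketone ester it was at 1226 ± 81.7 (SD, n = 3), higher than under semaglutide alone (0.65, SE 0.09, adjusted p = 0.0018). Mrln, which encodes the SERCA inhibitor myoregulin, had means of 576, 423 and 503 in vehicle, semaglutide and semaglutide + ketone ester (adjusted p = 0.16 and 0.49), and Hrc, the histidine-rich calcium binding protein of the SR, had 15915, 12533 and 16905 (adjusted p = 0.057 and 0.054). Strit1 was under the filter, and Arln and Erln had no row.

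**Figure D2:**
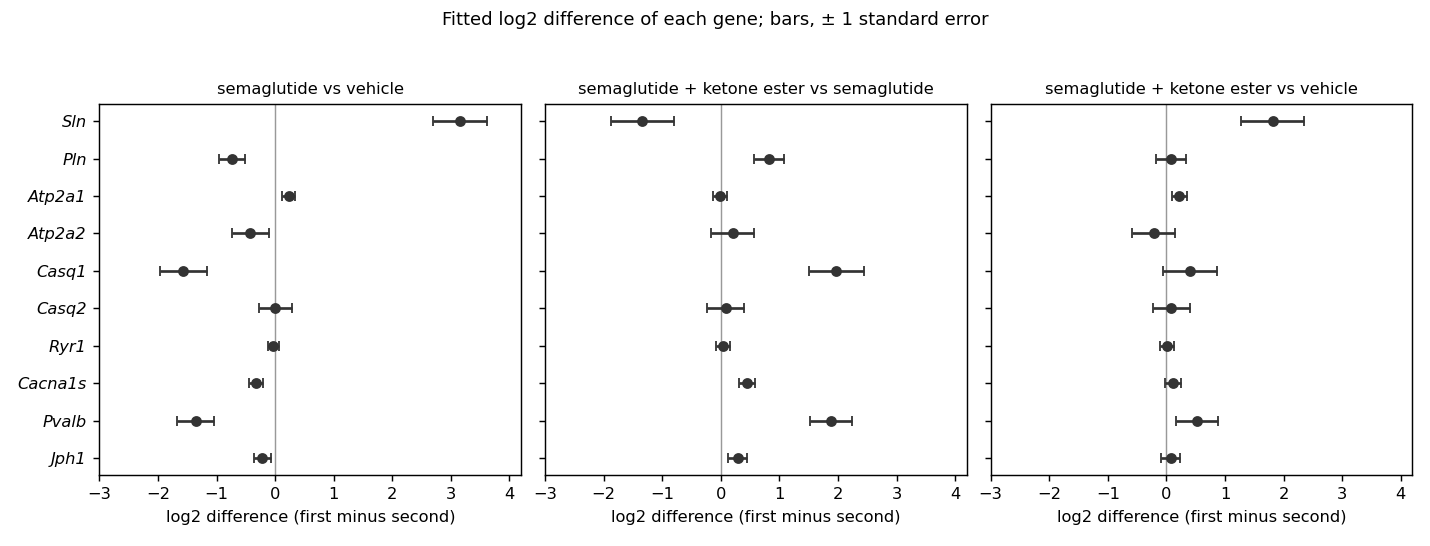
Fitted log2 difference (x axis, first group minus second) of the 10 genes (y axis) in the 3 comparisons, with bars of 1 standard error. Sln stands at 3.15 in semaglutide against vehicle, Casq1 at -1.57 and Pvalb at -1.36, and the last 2 stand at 1.97 and 1.88 in semaglutide + ketone ester against semaglutide.

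Atp2a1 (SERCA1, chr7:126445858-126463108, minus strand), the pump of fast fibres, was the most abundant gene of the list in every group per kilobase, and took 3.27% ± 0.226 (SD, n = 5) of all gene reads in vehicle. Normalized counts were 571693 to 684764 in vehicle, 571650 to 828222 in semaglutide and 721860 to 759711 in semaglutide + ketone ester. Of the semaglutide-treated mice 4 were above the vehicle range, whereas mouse 16, at 571650, was just below it. Without mouse 16 the log2 differences given next became 0.33 from vehicle and -0.10 between semaglutide + ketone ester and semaglutide. The log2 difference of 0.23 (SE 0.11) between semaglutide and vehicle depended on the scaling. It was 0.41 with the columns rescaled to equal totals, where the median of all genes moved by 0.17, and 0.66 after quantile normalization. As a share of all gene reads Atp2a1 was at 4.34% ± 0.326 (SD, n = 5) under semaglutide and 3.64% ± 0.128 (SD, n = 3) with ketone ester. Semaglutide + ketone ester and semaglutide differed by -0.01 (SE 0.12) on the deposited scale, by -0.25 with equal totals (median of all genes -0.24) and by -0.87 after quantile normalization, and semaglutide + ketone ester against vehicle was 0.22 (SE 0.12) on the deposited scale and -0.21 after quantile normalization. Rabep2 overlaps Atp2a1 on the opposite strand.

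Atp2a2 (SERCA2, chr5:122453513-122502225, minus strand), the pump of slow fibres and heart, varied more among mice than between groups. Values were 8246, 4313, 2905, 8206 and 7492 in vehicle, 4050, 6399, 2579, 4878 and 4493 in semaglutide, and 3848, 4944 and 6390 in semaglutide + ketone ester. All 3 groups overlapped, and the log2 difference between semaglutide and vehicle was -0.42 (SE 0.32). Atp2a2 made up between 0.280% and 0.937% of the per-kilobase sum of Atp2a1 and Atp2a2 in vehicle-treated mice, and between 0.205% and 0.567% in semaglutide-treated mice. Atp2a3, the pump of non-muscle cells, was at 200, 206 and 217 normalized counts in the 3 groups (limma adjusted p = 0.99 and 0.72).

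The spread of Atp2a2 followed the slow-fibre genes of the same mice. The summed normalized count of 8 slow-fibre markers ranged from 7913 to 34702 in vehicle, from 7297 to 20619 in semaglutide and from 11467 to 22450 in semaglutide + ketone ester. Under semaglutide 1 of the 8 (Myl3) passed the test as lower, beside 13.2% of all genes. All 8 had negative log2 differences (median -0.49), as had 6184 of 12303 genes tested. Over the 13 mice, the log2 value of Atp2a2 and that of the sum had r = 0.98 and rho = 0.97, r = 0.97 without the 2 mice farthest from the median, and r = 0.98 for deviations from the group means. Among all genes tested, those most like Atp2a2 over the 13 mice were Tnnc1 (r = 0.98), Myh7 (0.98) and Tpm3 (0.97), which are on the slow-fibre list. Casq2 (chr3:102086415-102146514, plus strand), the calsequestrin of slow fibres and heart, had r = 0.86 and rho = 0.87 with the sum and was most like Myl2 (0.93), Tnni1 (0.90) and Tnnc1 (0.88). Such correlations describe 13 libraries that share 3 groups and a batch label, and what gave the spread of slow-fibre genes was not tested.

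**Figure D3:**
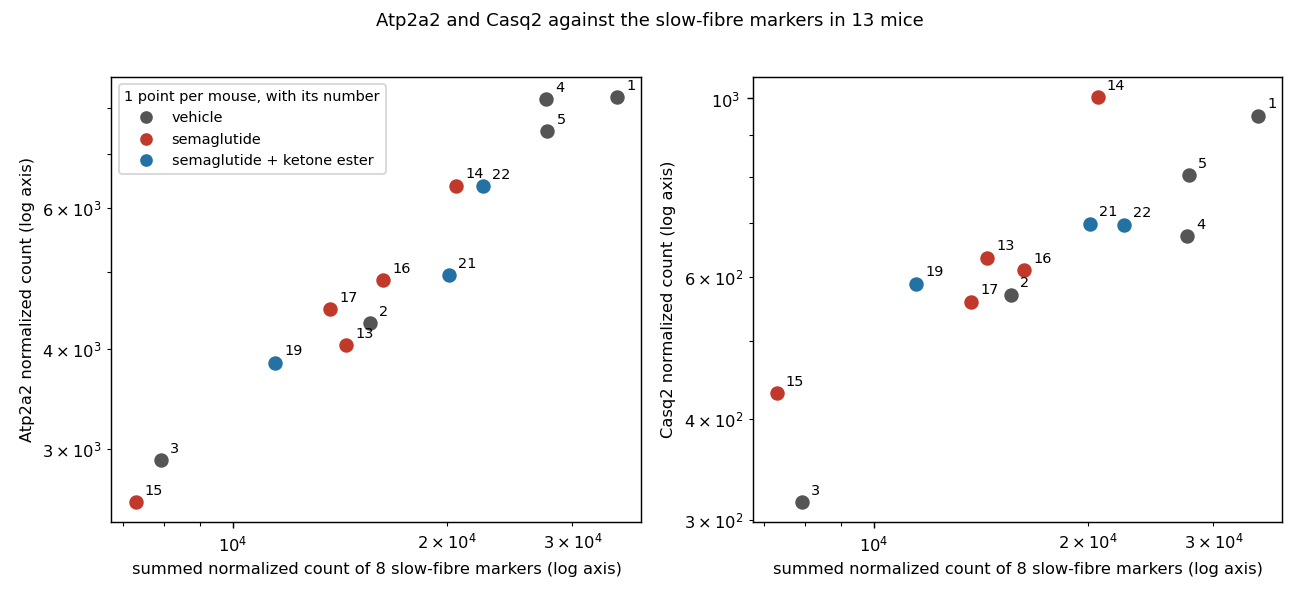
Normalized count of Atp2a2 and Casq2 (y axes, log scale) against the summed normalized count of 8 slow-fibre markers (x axes, log scale), with 1 numbered point per mouse coloured by group. Vehicle mouse 3 and semaglutide mouse 15 lie lowest on the x axis, at 7913 and 7297, and vehicle mouse 1 lies highest, at 34702.

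Casq1, the calsequestrin of fast fibres (chr1:172209894-172219868, minus strand), Casq2, and Pvalb, parvalbumin (chr15:78191114-78206400, minus strand), bind calcium, the first 2 in the SR and the last in the cytosol. Casq1 and Pvalb varied together over the mice while Casq2 did not, so the 250 bases before the start of each are shown, from RefSeq on GRCm38.p6, at chr1:172219896-172220145 (minus strand), chr3:102086165-102086414 (plus strand) and chr15:78206401-78206650 (minus strand). Capitals mark matches to the E-box CANNTG or to the MEF2 site, motifs of muscle transcription factors, on either strand.
Casq1: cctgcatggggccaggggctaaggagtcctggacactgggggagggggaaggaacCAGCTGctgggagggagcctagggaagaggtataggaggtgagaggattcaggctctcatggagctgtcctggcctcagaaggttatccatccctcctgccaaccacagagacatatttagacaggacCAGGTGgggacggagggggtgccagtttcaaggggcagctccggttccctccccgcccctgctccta
Casq2: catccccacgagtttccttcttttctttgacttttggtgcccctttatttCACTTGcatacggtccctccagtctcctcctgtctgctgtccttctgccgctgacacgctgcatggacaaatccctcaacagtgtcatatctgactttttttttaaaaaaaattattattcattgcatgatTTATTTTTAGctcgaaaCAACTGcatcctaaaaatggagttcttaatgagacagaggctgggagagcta
Pvalb: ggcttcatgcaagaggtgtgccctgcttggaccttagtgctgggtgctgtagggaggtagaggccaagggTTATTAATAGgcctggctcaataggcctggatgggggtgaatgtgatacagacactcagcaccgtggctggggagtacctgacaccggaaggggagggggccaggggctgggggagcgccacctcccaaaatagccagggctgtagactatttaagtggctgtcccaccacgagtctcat
The Casq1 window held 2 E-boxes, at 195 to 190 and 67 to 62 bases before the start, and no MEF2 match. The Pvalb window held 1 MEF2 match, at 180 to 171 bases before the start, and no E-box. A second Pvalb window, at chr15:78204238-78204487 and not shown, held 1 E-box and no MEF2 match. The Casq2 window held 2 E-boxes and 1 MEF2 match. Of 32851 promoter windows of the same length, 66.2% held an E-box and 2.92% a MEF2 match. The CArG box, which can overlap the MEF2 site and is in 1.47% of windows, was in none of the 3, and GGAAA, the core of NFAT sites, which is in 55.6%, was in the Casq2 window alone of the 3. A match describes the letters of a window and is not evidence of binding. Entries were at hand for 7 of the 10 genes (8 windows), Sln, Atp2a2 and Jph1 being without one.

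Casq1 was below the vehicle range in 4 of the 5 semaglutide-treated mice. Vehicle-treated mice had 40979, 44316, 45035, 34532 and 34695 normalized counts. Semaglutide-treated mice 14 to 17 had 14010, 11015, 6167 and 9758, all below the lowest vehicle value, while mouse 13 had 45263, above the highest. In the ketone ester group, mouse 19 had 43660, within the vehicle range, and mice 21 and 22 had 60580 and 54185, above it. The log2 difference between semaglutide and vehicle was -1.57 (SE 0.40), and -2.01 without mouse 13. Between semaglutide + ketone ester and semaglutide it was 1.97 (SE 0.46), and 2.41 without mouse 13. Without mouse 16 these differences were -1.29 and 1.70. An antisense gene overlaps Casq1 on the opposite strand.

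Pvalb gave the same order of mice in most respects. It was at 103077, 110509, 119277, 91413 and 88963 normalized counts in vehicle, at 93017 in semaglutide mouse 13 and at 35197, 46270, 19840 and 33226 in semaglutide mice 14 to 17. The ketone ester group had 121142, 169758 and 151411, above every mouse of the other groups. Mouse 13 lay in the vehicle range, and mouse 16 was the lowest, as for Casq1. The log2 differences were -1.36 (SE 0.31) between semaglutide and vehicle and 1.88 (SE 0.36) between semaglutide + ketone ester and semaglutide, and -1.66 and 2.18 without mouse 13, or -1.11 and 1.62 without mouse 16. Against vehicle, semaglutide + ketone ester stood 0.52 (SE 0.36) higher on the log2 scale, without overlap, as in 5.45% of all genes.

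Within the 8 mice of the vehicle and ketone ester groups alone, the log2 values of Casq1 and Pvalb had r = 0.99 and rho = 0.90. These 8 mice pool 2 groups that differed in level. For deviations from the group means over all 13 mice r was 0.95. Over all 13 mice, the genes most like Casq1 were Ak1 (r = 0.996), Pgam2 (0.99) and Slc37a4 (0.99), and those most like Pvalb were Tpm1 (0.99), Myl1 (0.99) and Ptx3 (0.99). Fast-fibre genes moved in part with them: of 9 fast-fibre markers, 2 fell (Myh4 and Tnnc2) and 1 rose (Actn3) under semaglutide, and 5 were higher and 1 lower in semaglutide + ketone ester than in semaglutide. The summed normalized count of the 9 ranged from 1996090 to 2433545 in vehicle, from 1311125 to 2257178 in semaglutide and from 2520467 to 2938353 in semaglutide + ketone ester. Markers of other cell types also differed between groups. Of all genes tested, 11.9% rose and 13.2% fell under semaglutide, and 9.09% were higher and 9.30% lower with ketone ester than without. Of 5 tendon markers 3 fell under semaglutide (for Kera the log2 difference was -5.15), with sums of 573 to 4635 in vehicle, 310 to 1694 in semaglutide and 2281 to 2723 in semaglutide + ketone ester. Of 5 fibroblast markers 4 fell (for Col1a1 the log2 difference was -3.02), with sums of 5120 to 11723, 4625 to 6371 and 6644 to 11019. Of 5 erythroid markers 4 were higher with ketone ester than without, and under semaglutide their limma adjusted p ran from 0.076 to 0.11, with sums of 1356 to 2291, 50.5 to 3148 and 2849 to 5558. Of 4 tested satellite cell markers 1 rose under semaglutide (Cdh15), and 3 had negative log2 differences that did not pass the test. The sums of the 5 listed were 559 to 687, 692 to 1322 and 546 to 605. Their mean log2 values were 5.52 to 5.89, 5.33 to 5.81 and 5.46 to 5.96, so the markers did not rise as a set. Over the 13 mice the sums had r with Casq1 and Pvalb of 0.88 and 0.93 for fast fibres, 0.80 and 0.77 for tendon, and 0.61 and 0.63 for fibroblasts. For erythroid cells r was 0.85 and 0.91, for smooth muscle 0.86 and 0.82, and for the satellite cell sum -0.89 and -0.89. For deviations from the group means r was 0.81 and 0.92 (fast fibres), 0.53 and 0.45 (tendon) and 0.11 and 0.14 (fibroblasts). It was 0.68 and 0.84 (erythroid), 0.72 and 0.63 (smooth muscle) and -0.65 and -0.60 (satellite cells). The part of these markers in the Casq1 and Pvalb values was not tested.

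Over the 13 mice Sln had r = -0.63 and rho = -0.46 with Casq1, and r = -0.65 and rho = -0.48 with Pvalb, and for deviations from the group means r was -0.29 and -0.44. Semaglutide mouse 13 had Casq1 and Pvalb at vehicle levels and Sln at 263, far above the highest vehicle value of 47.7. Mouse 19 of the ketone ester group likewise joined a Casq1 value within the vehicle range to an Sln value of 400, and semaglutide mouse 15 had Casq1 at 11015 with the lowest Sln of its group, 168.

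**Figure D4:**
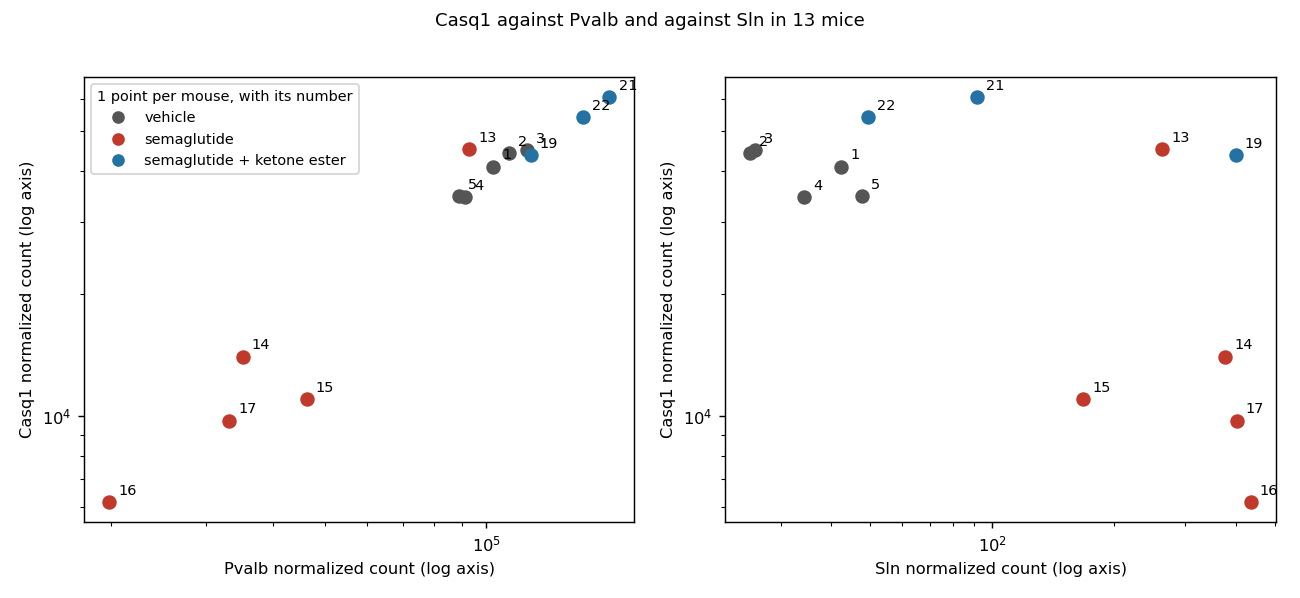
Normalized count of Casq1 (y axes, log scale) against Pvalb (left) and Sln (right; x axes, log scale), with 1 numbered point per mouse coloured by group. Casq1 and Pvalb rise together over the mice, and semaglutide mouse 13 and ketone ester mouse 19 stand apart in the Sln panel, with Sln at 263 and 400 and Casq1 at 45263 and 43660.

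Casq2 showed no such pattern. Its normalized counts were 316 to 952 in vehicle, 431 to 1003 in semaglutide and 589 to 699 in semaglutide + ketone ester, with a log2 difference of 0.00 (SE 0.28) between semaglutide and vehicle and of 0.08 (SE 0.32) between semaglutide + ketone ester and semaglutide. The share of Casq2 in the per-kilobase sum of both calsequestrins was 1.22% ± 0.498 (SD, n = 5) in vehicle, 3.85% ± 2.15 (SD, n = 5) in semaglutide and 0.901% ± 0.0703 (SD, n = 3) in semaglutide + ketone ester. In semaglutide mouse 13 the share was 0.999%, within the vehicle range of 0.502% to 1.65%.

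Other calcium-binding proteins of the SR lumen moved in both directions. Of 7 tested, 3 fell and 2 rose under semaglutide, beside 13.2% and 11.9% of all genes. Srl (sarcalumenin, a calcium-binding protein that stabilises SERCA) fell from 27523 ± 1843 to 18163 ± 4223 (SD, n = 5 each; log2 difference -0.63, SE 0.14, limma adjusted p = 0.0075) and was at 31924 ± 2489 (SD, n = 3) with ketone ester, higher than under semaglutide (0.84, SE 0.16, adjusted p = 0.0054). Calr (calreticulin, the calcium-binding chaperone) and Sdf4 rose, Calr from 2477 ± 111 to 3743 ± 608 (0.58, SE 0.11, adjusted p = 0.003), and both were lower with ketone ester than without (Calr at 2404 ± 111, adjusted p = 0.0065). Rcn1 and Rcn3, low-affinity calcium-binding proteins of the secretory pathway, fell by 0.60 and 0.92 on the log2 scale (adjusted p = 0.015 and 0.028). Semaglutide mouse 13 lay in the vehicle range for Rcn1 (85.1, vehicle 77.8 to 133) and Rcn3 (133, vehicle 76.7 to 169). Vehicle mouse 1 had 76.7 counts of Rcn3 against 152 to 169 in the other vehicle-treated mice. The Rcn3 call was lost without any 1 of vehicle mice 2 to 5 or semaglutide mice 15 and 17 (highest adjusted p = 0.0725), and both the Rcn3 and the Rcn1 call with equal totals (adjusted p = 0.0544 and 0.0656).

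Ryr1 (chr7:29003344-29125179, minus strand), the calcium release channel of skeletal muscle, stood at 92037 ± 7526 (SD, n = 5) normalized counts in vehicle, 90553 ± 10822 (SD, n = 5) in semaglutide and 92356 ± 7434 (SD, n = 3) in semaglutide + ketone ester. All 3 groups overlapped, and the log2 difference between semaglutide and vehicle was -0.03 (SE 0.10). With equal totals it was 0.15, where the median of all genes was 0.17, and after quantile normalization 0.27. The Casq1 to Ryr1 ratio per kilobase was 3.36 to 4.00 in vehicle, 3.90 in semaglutide mouse 13 and 0.715 at the lowest in the semaglutide group.

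Of 14 listed partners of the release channel, 12 were tested. Itpr1, an inositol trisphosphate receptor and thus another calcium release channel, fell furthest, from 842 ± 93.4 to 341 ± 61.5 (SD, n = 5 each) under semaglutide, without overlap, as in 7.45% of all genes, and with mouse 13 at 444 (log2 difference -1.31, SE 0.13, limma adjusted p = 9.4e-05). It was at 589 ± 70.3 (SD, n = 3) with ketone ester (0.80 above semaglutide, SE 0.15, adjusted p = 0.0045). Tmem38b, a trimeric cation channel of the reticulum, rose from 1229 ± 67.3 to 1700 ± 237 (0.46, SE 0.10, adjusted p = 0.0091) and was at 1170 ± 156 with ketone ester (-0.54, SE 0.12, adjusted p = 0.011). Selenon, the reticulum selenoprotein linked to congenital myopathy, fell by 0.41 (SE 0.14, adjusted p = 0.047), a call lost without any 1 of 9 mice (2, 4, 5, 14, 15, 17, 19, 21 or 22; highest adjusted p = 0.112) and with no filter, equal totals, the 2-group fit or edgeR (highest 0.254). In semaglutide mice 13 and 16 Selenon was at 107 and 97.1, within the vehicle range of 96.1 to 140. The ketone ester call of Tmem38b was lost without mouse 21 or 22 (highest adjusted p = 0.0650) and in the 2-group fit (0.0661). Triadin (Trdn), junctin (Asph), Jsrp1, Fkbp1a, Tmem38a and Speg, which sit with Ryr1 at the junction, did not pass the test in either comparison, with log2 differences from vehicle between -0.14 and 0.15.

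Cacna1s (chr1:136052750-136119822, plus strand), the pore subunit of the voltage sensor, was at 22461, 24285, 20671, 18038 and 20841 normalized counts in vehicle, at 21387, 16656, 17449, 13448 and 16498 in semaglutide, and at 24035, 22562 and 22329 in semaglutide + ketone ester. Semaglutide mice 14 to 17 were below the vehicle range and mouse 13 within it, and every mouse of the ketone ester group was above every semaglutide-treated mouse, as in 9.96% of all genes. The log2 difference was -0.32 (SE 0.12) between semaglutide and vehicle and -0.41 without mouse 13. Semaglutide + ketone ester differed from semaglutide by 0.44 (SE 0.14), and by 0.20 with equal totals, where the median of all genes was -0.24. Per kilobase, Ryr1 was 1.72 to 1.93 times Cacna1s in vehicle, 1.88 to 2.37 times in semaglutide and 1.62 to 1.74 times in semaglutide + ketone ester.

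Among 12 tested partners of the voltage sensor, Stac3, an adaptor needed for the coupling of Cacna1s to Ryr1, fell from 3699 ± 355 to 1994 ± 815 (SD, n = 5 each, log2 difference -0.97, SE 0.20, limma adjusted p = 0.0056). It was at 3943 ± 189 (SD, n = 3) with ketone ester (1.06 above semaglutide, SE 0.23, adjusted p = 0.0097, or 0.0561 in the fit on the 2 groups compared). Semaglutide mouse 13 had 3393 of Stac3, just below the vehicle range of 3397 to 4263, and mice 14 to 17 had 1293 to 1935. Cacng1, the gamma subunit of the skeletal muscle channel, rose from 4562 ± 703 to 8196 ± 1728 without overlap, as in 7.22% of all genes (0.83, SE 0.16, adjusted p = 0.0042). It was at 4654 ± 884 with ketone ester (-0.81, SE 0.19, adjusted p = 0.013), a call lost without mouse 21 or 22 (highest adjusted p = 0.0723) and in the 2-group fit (0.0519). The other subunits Cacna2d1 and Cacnb1 were at 8807 and 2585 in vehicle and at 7233 and 3222 in semaglutide (adjusted p = 0.12 and 0.32).

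Jph1 (junctophilin 1, chr1:16964560-17097889, minus strand), which tethers the T-tubule to the SR, was at 7623 ± 748 (SD, n = 5) normalized counts in vehicle, 6668 ± 1610 (SD, n = 5) in semaglutide and 8015 ± 838 (SD, n = 3) in semaglutide + ketone ester. Semaglutide mice 14 to 17, at 5244 to 6501, lay below the lowest vehicle value of 6696, and mouse 13, at 9400, lay above the highest of 8340. The log2 difference between semaglutide and vehicle was -0.22 (SE 0.14), or -0.35 without mouse 13 and -0.14 without mouse 16. Semaglutide + ketone ester stood 0.29 (SE 0.16) above semaglutide, or 0.42 without mouse 13 and 0.21 without mouse 16.

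The other genes of the junction and T-tubule gave 2 of 7 that fell under semaglutide and 2 of 7 that were higher with ketone ester. The shares of all genes were 13.2% and 9.09%. Cav3 (caveolin 3, needed for T-tubule formation) fell from 553 ± 41.7 to 344 ± 112 (SD, n = 5 each; log2 difference -0.74, SE 0.17, limma adjusted p = 0.0098) and was at 606 ± 25.7 (SD, n = 3) with ketone ester (0.87 above semaglutide, SE 0.20, adjusted p = 0.012). Semaglutide mouse 13 had 521 of Cav3, within the vehicle range of 503 to 614. Jph2, the second junctophilin of muscle, was at 14188 to 19072 in vehicle, 4215 to 9706 in semaglutide mice 14 to 17 and 21202 in mouse 13 (log2 difference -1.03, SE 0.34, adjusted p = 0.046), and this call was lost under 18 of 23 alternatives, among them without any 1 of the mice other than 13 (highest adjusted p = 0.113). Sypl2 (mitsugumin 29, a T-tubule protein) was higher with ketone ester than under semaglutide (1.53, SE 0.46, adjusted p = 0.036), with semaglutide mouse 13 at 11493 and the other semaglutide-treated mice at 1716 to 3838. This call was lost without any 1 of mice 14 to 17, 19, 21 and 22 (highest adjusted p = 0.123) and by edgeR, DESeq2, no filter or the 2-group fit (highest 0.118), and the ketone ester call of Cav3 without mouse 22 (adjusted p = 0.0553) and in the 2-group fit (0.0641). In the T-tubule genes Bin1, Dysf, Mtm1 and Dnm2 the values did not pass the test in either comparison.

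Levels per kilobase, which allow genes to be compared, placed the 10 genes in vehicle in the order Atp2a1, Pvalb, Casq1, Ryr1, Cacna1s, Jph1, Atp2a2, Casq2, Sln and Pln, from 182164 normalized counts per kilobase of exon for Atp2a1 to 23.3 for Pln. The ranges over mice overlapped for the neighbours Jph1 and Atp2a2 and for Sln and Pln, and for no other neighbours in vehicle. In semaglutide the ranges of Pvalb and Casq1, Casq1 and Ryr1, Jph1 and Atp2a2, and Casq2 and Sln overlapped. With ketone ester the overlap was between Casq2 and Sln only.

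Counting over all roles, 97 other calcium-handling genes were listed and 79 tested. This list too was made with earlier results of these data known, so nothing is read from the shares and medians below. Under semaglutide 7 (8.86%) rose and 16 (20.3%) fell, beside 11.9% and 13.2% of all genes, and the median log2 difference was -0.17 against -0.0029 for all genes. Between semaglutide + ketone ester and semaglutide 12 (15.2%) were higher and 7 (8.86%) lower, beside 9.09% and 9.30% of all genes, with a median of 0.14 against -0.00024. None passed in semaglutide + ketone ester against vehicle by limma or edgeR, and 3 passed by DESeq2. At an unadjusted p under 0.05 there were 6, for which no share of all genes is given. Of all genes limma called 29, edgeR 45 and DESeq2 172 in this comparison. Without mouse 13 8 rose and 30 fell under semaglutide, and with ketone ester 25 were higher and 9 lower than under semaglutide. Calls over all genes grew as well, from 3084 to 4450 and from 2262 to 3959. Without ketone ester mouse 19 or 22, 7 and 6 genes were higher in the second comparison, and without mouse 21 or 22, 2 were lower. Calls over all genes in that comparison were 1705, 971 and 861 without mouse 19, 21 or 22. With equal totals, 12 rose and 11 fell under semaglutide, and 8 were higher and 15 lower in semaglutide + ketone ester than in semaglutide. Over all genes 4191 and 4198 were then called.

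**Figure D5:**
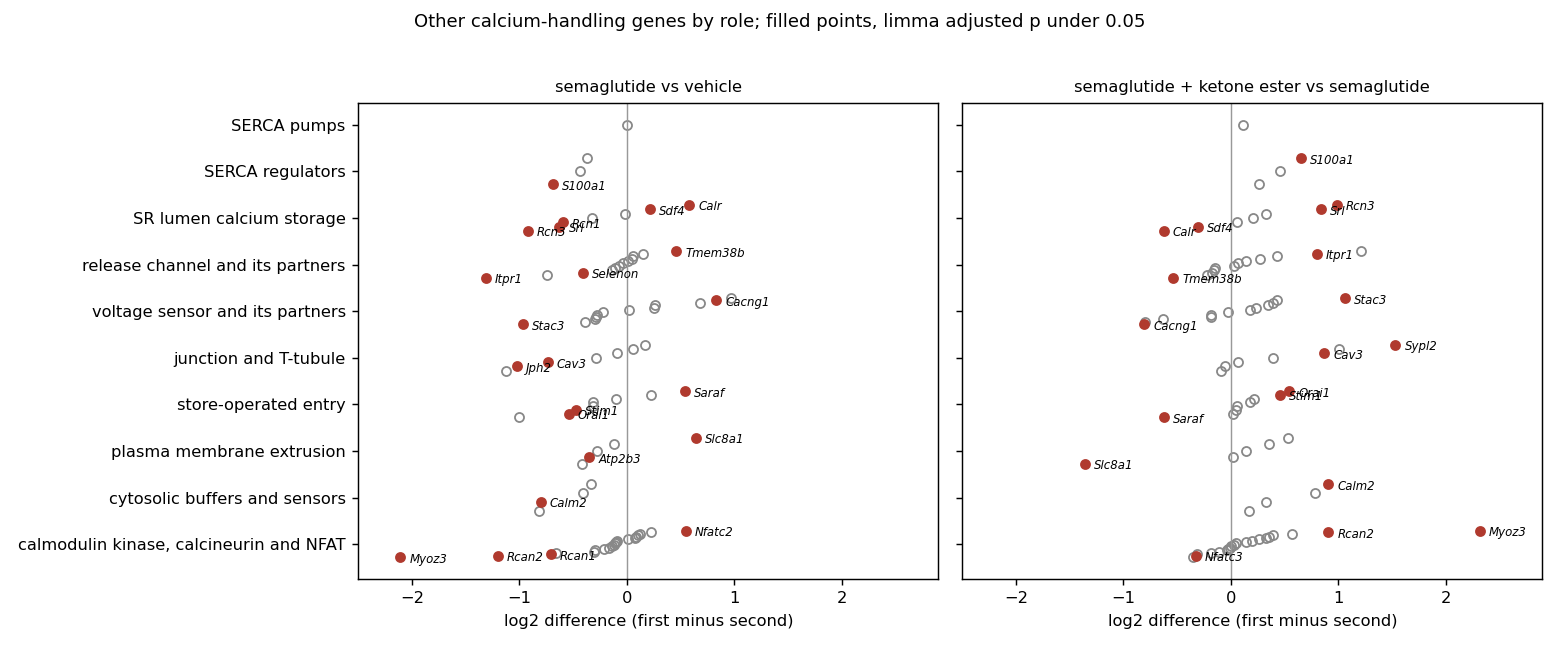
Fitted log2 difference (x axes) of the 79 tested calcium-handling genes other than the 10, by role (y axis), for semaglutide against vehicle (left) and semaglutide + ketone ester against semaglutide (right); each point is a gene, and filled, named points have a limma adjusted p under 0.05. Points lie on both sides of 0 in both panels, with 16 filled points below 0 on the left and 12 above 0 on the right.

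Genes of store-operated calcium entry, which refills the SR from outside the fibre, included 2 of 8 that fell and 1 that rose under semaglutide. The shares of all genes were 13.2% and 11.9%. Orai1, the pore of the entry channel, fell from 506 ± 38.6 to 351 ± 59.8 (SD, n = 5 each) without overlap, as in 7.45% of all genes (log2 difference -0.54, SE 0.12, limma adjusted p = 0.0068). Stim1, the sensor of SR calcium, fell by 0.47 (SE 0.11, adjusted p = 0.011). Saraf, which inhibits store-operated entry, rose by 0.54 (SE 0.12, adjusted p = 0.0096). Semaglutide mouse 13 lay in the vehicle range for Stim1 (4900, vehicle 4791 to 5492) and Saraf (3140, vehicle 2929 to 3268). With ketone ester Orai1 and Stim1 were higher than under semaglutide (0.54 and 0.46, adjusted p = 0.017 and 0.031) and Saraf lower (-0.62, adjusted p = 0.013). The ketone ester call of Orai1 was lost without mouse 19 or 22, that of Saraf without 21 or 22, and that of Stim1 without any 1 of 15, 17, 19, 21 and 22 (highest adjusted p = 0.0683, 0.0621 and 0.105). All 3 were also lost in the 2-group fit, and those of Orai1 and Stim1 with equal totals (highest adjusted p = 0.0747 for Orai1, 0.0714 for Saraf and 0.133 for Stim1, which was lost with no filter too).

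Of the transporters that extrude calcium across the plasma membrane, 5 of 7 were tested. Slc8a1, a sodium/calcium exchanger, rose from 416 ± 59.3 to 680 ± 257 (SD, n = 5 each, log2 difference 0.64, SE 0.21, limma adjusted p = 0.041). With ketone ester it was at 252 ± 12.4 (SD, n = 3, -1.36 from semaglutide, SE 0.24, adjusted p = 0.004). These values lay below every semaglutide-treated mouse, as in 10.2% of all genes, and below every vehicle-treated mouse, as in 5.88%. Atp2b3, a plasma membrane calcium pump, fell by 0.35 (SE 0.12, adjusted p = 0.045). Semaglutide mouse 13 lay in the vehicle range for Slc8a1 (411, vehicle 345 to 482) and Atp2b3 (273, vehicle 233 to 293). The semaglutide calls of both were lost without any 1 of 11 mice (highest adjusted p = 0.0883 for Slc8a1 and 0.103 for Atp2b3), but not without mouse 13. They were lost too with no filter and in the 2-group fit, and for Atp2b3 with equal totals (highest 0.0693 and 0.238). In the cytosol, Calm2, which encodes the calcium sensor calmodulin, fell by 0.80 (SE 0.25, adjusted p = 0.034) and was 0.91 (SE 0.29) higher with ketone ester (adjusted p = 0.045), whereas Calm3 did not pass the test in either comparison. Semaglutide mouse 13 had 2396 of Calm2, within the vehicle range of 1835 to 2612. The Calm2 calls were lost without any 1 of 7 mice in the first comparison and of 12 in the second (highest adjusted p = 0.0788 and 0.154), but not without mouse 13. Both were lost too with no filter and in the 2-group fit, and the second with equal totals (highest 0.0563 and 0.124).

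Among the calmodulin kinases, calcineurin (the phosphatase switched on by calcium and calmodulin), NFAT and their partners, 3 of 20 tested genes fell and 1 rose under semaglutide. These counts stand beside 13.2% and 11.9% of all genes, and nothing is read from them. Myoz3 (calsarcin 3), which binds calcineurin at the Z-disc of fast fibres, was at 4325 to 5376 normalized counts in vehicle, at 621 to 1019 in semaglutide mice 14 to 17, at 3799 in mouse 13 and at 5044 to 5869 with ketone ester (log2 differences -2.11, SE 0.38, limma adjusted p = 0.0027, and 2.32, SE 0.44, adjusted p = 0.0054). Rcan2, a calcineurin inhibitor, fell from 1278 ± 237 to 550 ± 45.2 (SD, n = 5 each), with mouse 13 among the low values (-1.20, SE 0.15, adjusted p = 0.0004), and was 0.91 (SE 0.18) higher with ketone ester (adjusted p = 0.0061). Rcan1, whose transcription calcineurin and NFAT drive, fell from 2187 ± 463 to 1322 ± 213 (-0.71, SE 0.17, adjusted p = 0.012) and stood at 1363 ± 234 with ketone ester (adjusted p = 0.90 against semaglutide). Nfatc2 rose from 230 ± 23.9 to 339 ± 55.3 (0.55, adjusted p = 0.0062), Nfatc3 was lower with ketone ester than under semaglutide (-0.33, adjusted p = 0.027, lost without mouse 21 or 22, with no filter and in the 2-group fit with a highest adjusted p of 0.131), and the calcineurin subunits Ppp3ca, Ppp3cb, Ppp3cc and Ppp3r1 did not pass the test in either comparison.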

How the data were processed

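RNA from the gastrocnemius of 13 mice (1 sample per mouse, taken as separate animals by their mouse numbers) was sequenced after a stranded mRNA preparation. The authors deposited counts per gene divided by size factors, a normalized signal. The submitters' processing notes name DRAGEN, DESeq2 and mm10. The counter, its annotation and its use of strand are not given in the sources used here. Values were whole multiples of 1 step per mouse for 100% of genes (tolerance 0.02), which gave whole reads, 15319471 to 23498162 per mouse. A count of 0 allows up to 3 reads, at most 1.96e-05% of a library, for counting error only.

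Genes with a mean of at least 10 normalized counts (12303) were tested with limma 3.58.1 (R 4.3.3) on log2(value + 1) with 3 groups, and p-values were adjusted by Benjamini-Hochberg over all of them, with a threshold of 0.05. A fold change on this scale understates the change of low genes. On the recovered reads edgeR 4.0.16 called 3311, 2557 and 45 genes for semaglutide against vehicle, semaglutide + ketone ester against semaglutide, and semaglutide + ketone ester against vehicle, and limma called 3084, 2262 and 29.

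The 10 genes and all lists were chosen with earlier results of these data known. By rule, each role's 3 largest called differences in each of the first 2 comparisons were named, and all in the last. Other genes of the lists were named after their values were seen. Gene positions and exon lengths came from GENCODE vM21 (GRCm38), and promoters from RefSeq (GRCm38.p6). Alternatives were the pseudocount, the filter, equal totals, quantile normalization, array weights, 2-group fits, edgeR, DESeq2 1.42.0 and leaving out each mouse. A limma prior variance that follows the mean was added after seeing the data. Scripts were tested on simulated data.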

Additional observations from a re-analysis of the deposited data

Results flagged for a closer look

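A single mouse lay far from the rest of its group (Dixon's test) in 6 of 66 groups of values examined. These were values of the vehicle and semaglutide groups, and the ketone ester group was not examined in this way. For independent groups chance gives about 1 in 20, or 3.3. The 66 share the same mice, and many genes were named for their differences in these data, so 3.3 is no measure of chance here. Semaglutide mouse 13 was the highest of its group in 5 of the 6. Casq1 was at 45263 normalized counts in mouse 13, with the next at 14010. Sypl2 was at 11493 (next 3838), Myoz3 at 3799 (next 1019), Atp2b3 at 273 (next 202) and Nfatc3 at 897 (next 841). The remaining value was the lowest of the vehicle group, Rcn3 in mouse 1 at 76.7 normalized counts, with the next at 152. Mouse 13 also lay apart on the first principal component of all genes, and why was not tested.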

How the results depend on the processing

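Of the other calcium-handling genes, 7 rose and 16 fell under semaglutide, and 12 were higher and 7 lower in semaglutide + ketone ester than in semaglutide. Array weights gave 29 that fell and 27 that were higher. With equal totals 12 rose and 15 were lower, as the median of all genes moved by 0.17 and -0.24. The fit on the 2 groups compared gave 5 higher and 2 lower for the second comparison. For semaglutide + ketone ester against vehicle, where limma called 0 and 0, array weights gave 1 higher and 1 lower, and DESeq2 gave 1 higher and 2 lower. Leaving out each mouse gave 5 to 8 that rose and 11 to 30 that fell (30 without mouse 13), 6 to 25 that were higher (25 without mouse 13, 6 without mouse 22) and 2 to 9 that were lower (2 without mouse 21 or 22), and 0 to 0 in both directions against vehicle. Over all genes, calls in the 3 comparisons numbered 3084, 2262 and 29 in limma, 4847, 4279 and 205 with array weights, and 3577, 2935 and 172 in DESeq2. They numbered 4450, 3959 and 77 without mouse 13, and 4191, 4198 and 37 with equal totals. Apart from the alternative scalings, the cause of these shifts was not tested. No called value changed sign, all 20 and 18 named calls held without mouse 13, and over the repeats of the named calls under all alternatives 728 kept the call and 143 lost it. The 3 ketone ester mice and the low reads of Sln and Pln limit precision. No paired analysis was possible because mouse numbers are not shared between groups.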
